A study of Mus musculus with 15 samples.

Results

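The genes described here separated a pool of mesenchymal-like mouse mammary tumours from a pool of epithelial ones with no overlap of values. The mesenchymal-like pool held 5 samples, 4 of the model 2151R and 1 of T11, and the epithelial pool held 10, 2 of 2225L and 8 of 2208L. A gene was chosen when all 5 values of the first pool lay above, or all 5 lay below, all 10 values of the other. Of 17271 genes in the deposited table, 3529 (20.4%) met this rule, 1988 of them higher in 2151R and T11 (11.5% of all genes) and 1541 lower (8.92%). Because the values themselves chose these genes, the differences between the pools are given below as a description, and chosen genes are tested one by one only in contrasts inside the pools.

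All 15 samples were mouse mammary tumours of genotype p53-NULL on the Balbc strain, and no label gives an age. RNA-seq libraries were made from poly(A) RNA, and the deposited values are log2 expression values centred for each gene, so that 0 is a gene's reference level and the values do not order genes by abundance. In the titles, 4 samples of 2208L are marked PBS, 3 are marked 3day nt and 1 has only the library prefix ROSEN, which replicate 2 of 2225L also has. In 2151R, replicates 3 and 4 are marked NT and replicates 1 and 2 carry marks that the labels do not explain, while T11 and 2225L carry no treatment mark that could be read. Models of this kind are tumour lines kept by transplantation, so the pools set 2 lines against 2, T11 has 1 sample, and samples of a line are not independent draws of a tumour class. No label says that samples came from separate animals, so the spread between them may be technical. Library numbers with the prefix CP form separate ranges for the 4 models, so a model and its libraries' numbering cannot be told apart, and only epithelial samples have the prefix ROSEN. Depth is unknown because the table holds no counts.

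Epithelial cells hold together through tight junctions, adherens junctions and desmosomes, have a distinct apical membrane and carry keratin filaments. In the epithelial to mesenchymal transition these structures are taken down and vimentin filaments and a motile shape appear, under transcription factors of the ZEB, SNAI and TWIST families that repress epithelial genes, while GRHL and OVOL factors and the ESRP splicing regulators maintain the epithelial state. In breast cancer, tumours low in claudins and rich in mesenchymal genes are known as claudin-low. The class names of the pools are not in the sample labels, so they were checked against defining markers.

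Cdh1, Epcam, Vim and Zeb1 followed the class names in every sample, although the rule also chose these genes, while other mesenchymal markers given below, such as Cdh2, Fn1, Snai1, Snai2 and Twist1, overlapped. Cdh1, which encodes the adherens junction protein E-cadherin (chr8:106603350-106670247), had centred log2 values of -5.34, -6.13, -5.36 and -5.34 in 2151R and -7.67 in T11. In 2225L Cdh1 was at 0.64 and 0.03, and in 2208L it ran from 0.01 to 0.56 with a median of 0.30. The pools were 5.35 apart at their nearest samples, and the difference of pool means was -6.27 (SE 0.31). Here and below, the SE of a difference of pool means treats samples as independent. It leaves out the likeness of samples of a model (estimated correlation 0.49), so it overstates the precision for a contrast of lines. Vim, the gene of vimentin (chr2:13574311-13582826), was at 2.23, 2.32, 2.24 and 2.27 in 2151R and at 2.28 in T11, against -0.14 and -0.56 in 2225L and -1.39 to -0.48 in 2208L (median -0.79). All 5 mesenchymal-like samples therefore lay within 0.09 of each other at Vim, 2.38 above the nearest epithelial sample. These are bulk tumours, in which fewer cells of a type and less RNA per cell cannot be told apart.

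The separation was often wide among the lower genes and more often narrow among the higher ones. The gap, meaning the distance between the nearest values of the pools, had a median of 0.64 log2 units in the lower genes and 0.39 in the higher genes. A gap of at least 1 was found for 609 lower (3.53% of all genes) and 413 higher genes (2.39%). The median difference of pool means was -2.37 over the lower and 1.52 over the higher genes, against 0.11 over all genes. At the edge of the rule, Ccp110 and Dpy19l4 were among the last genes inside on the higher side and Akt2, Efna1 and Klhl12 on the lower side, each with nearest values that agree to 2 decimals. Add1, Kif3b and Spry4 lay just outside on the higher side, and Dhx30, Polr3k and Rpsa-ps4 on the lower side.

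The split between higher and lower genes depended on how samples were scaled. With each sample centred on its median, 1780 genes were higher and 1958 lower, and with quantile normalization 1763 and 1917, so the higher share of the chosen genes went from 56.3% to 47.6% and 47.9%. Of the 1988 higher genes 1742 and 1705 were also chosen in these settings, and of the 1541 lower genes 1538 and 1507. The limma fit across all genes called 4172 genes higher (24.2%) and 3270 lower (18.9%), or 43.1% in either direction, at a Benjamini-Hochberg adjusted p under 0.05. When the model was a random block with an estimated correlation of 0.49, it called 1310 (7.58%) and 1221 (7.07%). Among these were 1230 of the 1988 higher and 1119 of the 1541 lower genes. Both fits set the same pools against each other as the rule did, so the shared genes are no separate support for the choice.

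Among lower genes with no exactly repeated value, the 12 with the widest gaps were Wfdc18, Faim2, Tfap2c, Cited4, Cldn3, Cldn7, Slc30a2, Mia, Fermt1, Ap1m2, Kctd14 and Col9a3. They held 2 claudins, which seal tight junctions, the transcription factor gene Tfap2c, and Ap1m2, a subunit of the AP-1B adaptor that sorts proteins to the basolateral membrane. Wfdc18, a whey acidic protein family gene (chr11:83709004-83711360), was at -7.34, -7.46, -7.05 and -7.75 in 2151R and at -11.65 in T11. It was at 1.92 and 1.22 in 2225L and from 3.59 to 5.47 in 2208L (median 4.50), so the gap was 8.27 and the difference of means -12.12 (SE 0.79). The epithelial models were themselves apart at Wfdc18, with every 2225L sample below every 2208L sample. Faim2, an inhibitor of Fas-induced cell death (chr15:99497005-99534880), had a gap of 7.98, with mesenchymal-like values from -9.94 to -6.03 and epithelial values from 1.95 to 3.18. Gpx2 and Gata4 had wider gaps of 9.73 and 9.19, but some samples hold the very same number at each, the meaning of which the sources used here do not give.

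Among higher genes with no exactly repeated value and no predicted symbol, the 12 widest gaps were those of Phex, Nptx1, Ndst3, Trim66, Sema3a, Adamtsl3, Adh7, Doc2b, Tenm3, Arsj, Cacnb2 and Syne3. Several of these genes are best known from bone or nervous tissue. Phex, an endopeptidase gene of phosphate balance in bone (chrX:157162075-157415286), was at 7.28, 6.85, 7.16 and 7.21 in 2151R and 7.54 in T11. It was at -1.09 and -4.09 in 2225L and from -4.35 to 0.00 in 2208L (median -1.83), a gap of 6.85 and a difference of means of 9.40 (SE 0.66). Ndst3, a heparan sulfate modifying enzyme gene (chr3:123526166-123691174), was at 7.27, 6.66, 7.02 and 7.27 in 2151R, 6.24 in T11, -1.26 and -3.67 in 2225L and -3.70 to 0.00 in 2208L (median -1.99). The epithelial values of both genes spread over several log2 units while the mesenchymal-like values stayed close together. How near the epithelial values lie to the limit of detection is unknown, so their spread is not read further. Wider gaps than that of Phex were those of Tmem74 (7.70) and Rgs17 (7.24), where samples share an exact value. Sema3a, a secreted axon guidance factor, had a gap of 4.54, and Syne3, a nuclear envelope protein gene, one of 3.74 with epithelial values from -2.18 to -0.58.

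**Figure D1:**
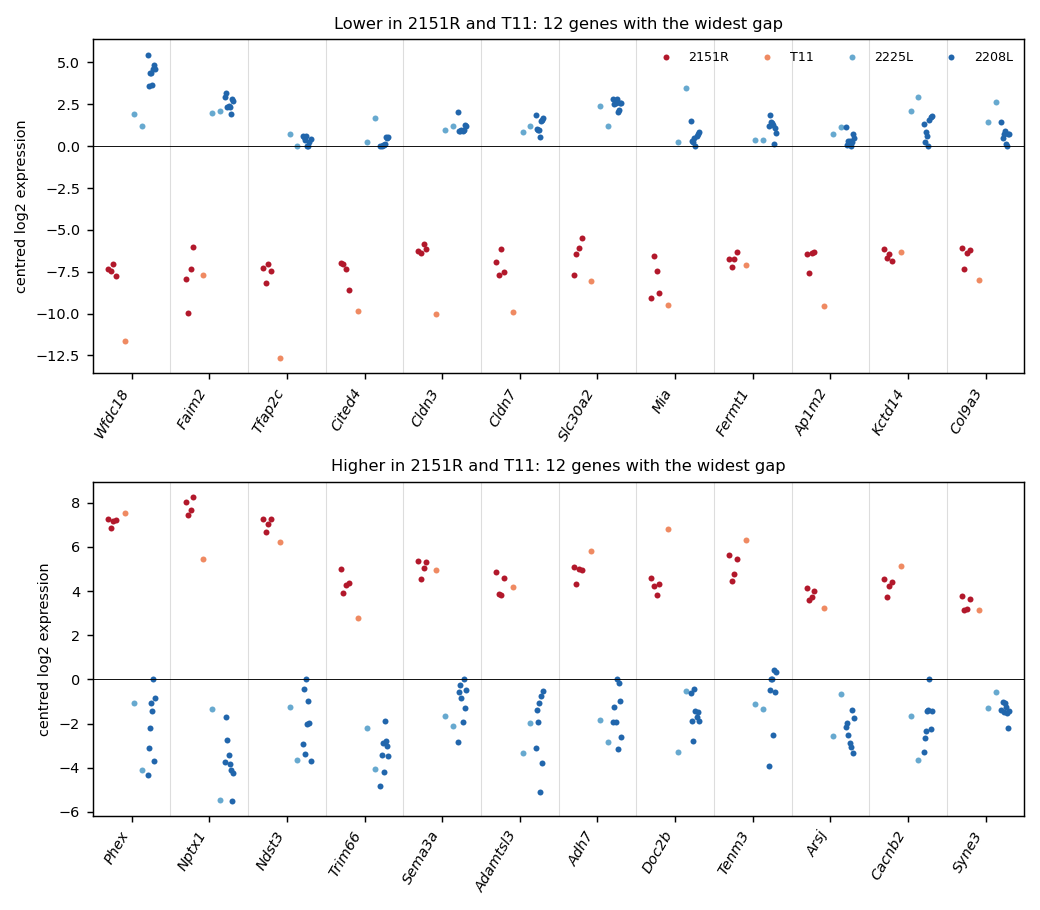
Centred log2 expression (vertical axes) of the 12 lower genes (top) and the 12 higher genes (bottom) with the widest gaps, with 1 point for each sample of 2151R, T11, 2225L and 2208L. No mesenchymal-like point meets an epithelial point, with gaps from 6.11 to 8.27 in the upper and from 3.74 to 6.85 in the lower panel.

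The transcription factors of the transition did not move as a block. The gene lists here and below were chosen with earlier results of these data known. Their counts stand beside shares of 11.5% higher and 8.92% lower over all genes, as a description. Of 18 listed genes, 8 were higher (among them Zeb1, Zeb2, Prrx1, Tcf4, Tbx3, Runx2 and Tead1), 2 were lower (Snai3 and Foxc1) and 8 overlapped, with a median difference of 1.33. Zeb1, a zinc finger repressor of E-cadherin, was at 3.57, 2.91, 2.92 and 3.41 in 2151R and 3.92 in T11, against -0.84 and -1.94 in 2225L and -1.73 to 0.00 in 2208L (median -0.59). Zeb2, its paralog, was at 2.25, 1.87, 1.44 and 2.0 in 2151R and 2.27 in T11, against -2.12 and -1.76 in 2225L and -1.59 to 0.00 in 2208L (median -0.59). The gaps were 2.91 and 1.44, and no epithelial sample lay above the reference level at either gene. Tbx3, a T-box factor with a role in mammary development, had the widest gap of the list at 3.28 (difference 4.64, SE 0.33).

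The other well-known members of the list did not separate the pools. Snai1 was at -0.40 to 0.23 in 2151R and 1.10 in T11, against -2.98 and -2.64 in 2225L and -0.85 to 0.08 in 2208L, so replicate 3 of 2151R fell among the 2208L samples. Snai2, which is also expressed in normal basal mammary cells, was at -3.06 to -2.04 in 2151R and 0.77 in T11, against 0.36 and 0.00 in 2225L. Its 2151R values lay inside the 2208L range of -3.80 to -1.97, and T11 was the highest of all 15 samples. Twist1 was at -0.63 to -0.28 in 2151R, between 2225L (-1.17 and -1.19) and 2208L (0.06 to 0.72), and at 0.07 in T11, inside the 2208L range. Snai3 went the other way, at -3.65 to -1.79 in the mesenchymal-like samples and 0.68 to 4.11 in the epithelial ones. Foxc1, a forkhead factor often linked to basal-like breast cancer, was at -1.86 to -1.60 in the mesenchymal-like samples and at 0.00 to 1.27 in the epithelial ones.

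The regulators that maintain the epithelial state were the counterpart. Of 23 listed, 15 were lower, 1 was higher and 7 overlapped, with a median difference of -6.29. Esrp1, the splicing regulator that gives epithelial isoforms (chr4:11331933-11386783), was at -6.01, -6.88, -5.88 and -6.33 in 2151R and -13.37 in T11, against 0.36 and 0.00 in 2225L and 0.08 to 0.60 in 2208L (median 0.44). Ovol2, a zinc finger repressor of Zeb1, was at -6.22, -6.40, -5.61 and -6.58 in 2151R and -6.97 in T11, against 1.60 and 0.59 in 2225L and 0.00 to 1.0 in 2208L (median 0.44). Grhl2, which activates E-cadherin and claudin genes, was at -4.04, -4.96, -4.50 and -4.51 in 2151R and -7.99 in T11, against 1.49 and 1.34 in 2225L and 0.00 to 1.45 in 2208L (median 1.20). In all of these T11 was the lowest sample, by over 6 log2 units at Esrp1 and by under 1 at Ovol2. Sox10, a neural crest and mammary progenitor factor, had the same pattern, with 2151R at -7.05 to -5.98, T11 at -14.55 and epithelial samples at 0.00 to 1.0. That T11 value is the lowest in the whole table. Depth and the offset before the log2 are unknown, so how near such values lie to the limit of detection cannot be told. The size of a distance between very low values, here and at other genes, is therefore not read as a graded difference. Grhl1, Grhl3, Ovol1, Elf3, Elf5, Ehf, Esrp2 and Tfap2c were also lower with gaps from 3.74 to 7.04, though 4 samples share an exact value at Grhl3.

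Gata3, Trp63 and Foxa1 departed from that pattern. Gata3, a luminal lineage factor placed on the list as an epithelial regulator, was higher, at 2.26, 1.34, 1.89 and 2.14 in 2151R and 1.44 in T11, against -2.57 and -3.16 in 2225L and -0.58 to 0.77 in 2208L (median -0.03). Trp63, the basal cell factor p63, was lower by a gap of only 0.24, with 2151R at -0.70 to -0.24, T11 at -2.60, 2208L at 0.00 to 1.53 and 2225L at 5.55 and 4.08. Foxa1 overlapped, since 2151R (-1.41 to 0.35) lay around 2208L (-0.23 to 0.76) and only T11 (-8.26) lay far below.

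**Figure D2:**
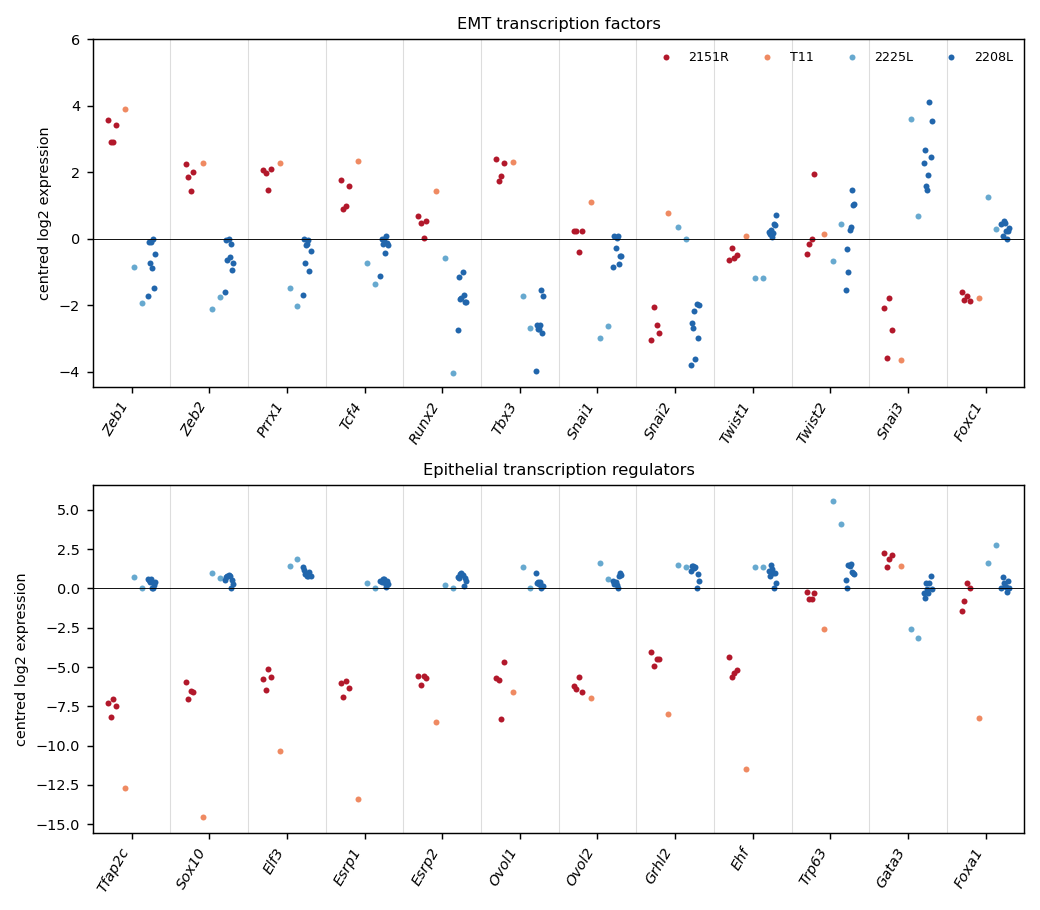
Centred log2 expression (vertical axes) of 12 transcription factors of the epithelial to mesenchymal transition (top) and 12 epithelial transcription regulators (bottom), with 1 point for each sample. Zeb1 has a gap of 2.91 while Snai1, Snai2, Twist1 and Twist2 overlap, and in the lower panel Gata3 is higher in the mesenchymal-like samples.

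Most genes of tight junctions and desmosomes were lower. Of 23 tight junction genes 16 were lower (69.6%) and 1 was higher (median difference -4.26). Of 13 desmosome genes 10 were lower (76.9%, median difference -3.67). Of 15 genes of adherens junctions and Epcam 7 were lower (46.7%) and 1 was higher (-0.74). Over all genes 8.92% were lower. Cldn7, a claudin of mammary epithelium (chr11:69964779-69967886), was at -6.92, -7.72, -6.16 and -7.52 in 2151R and -9.88 in T11, against 0.86 and 1.20 in 2225L and 0.53 to 1.86 in 2208L (median 1.24). Lsr, the receptor that marks tricellular junctions (chr7:30957770-30973469), was at -5.98, -5.40, -5.52 and -5.50 in 2151R and -6.28 in T11, against 0.66 and 1.11 in 2225L and 0.41 to 1.24 in 2208L (median 0.80). Epcam, an epithelial adhesion molecule, was at -6.30 to -5.08 in 2151R, -9.83 in T11 and 0.00 to 1.37 in the epithelial samples. Every mesenchymal-like sample was thus more than 5 log2 units below every epithelial sample at these 3 genes. The cytoplasmic partners of cadherins did not separate: Ctnna1 ran from 0.19 to 0.76 in the mesenchymal-like and from -0.67 to 0.76 in the epithelial samples, and Ctnnb1 from -0.57 to 0.00 and from -0.66 to 0.34. Cldn12 (0.79 to 1.49 against -0.74 to -0.05) and Nectin3 (0.23 to 1.14 against -1.46 to 0.00) were the higher members.

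Mesenchymal cadherins were mostly not separated. Of 6 listed, Cdh13 was higher, with a gap of 1.41, and the other 5 overlapped, while 2 were higher without T11. Cdh2, the gene of N-cadherin, was at 1.62 to 2.25 in 2151R and 0.96 in T11, against -2.77 and -3.05 in 2225L and -0.24 to 1.41 in 2208L, so T11 fell inside the 2208L range. Cdh11 was at 0.24 to 1.15 in the mesenchymal-like and -0.22 to 1.90 in the epithelial samples.

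Most desmosomal genes and 8 of the measured keratins were lower, while the keratins Krt5 and Krt14 overlapped. Dsp, the gene of desmoplakin, was at -4.55, -5.64, -4.86 and -4.06 in 2151R and -7.50 in T11, against 1.54 and 0.00 in 2225L and 0.69 to 2.19 in 2208L (median 1.74). Of 14 measured keratins 8 were lower (median difference -4.56) and 6 overlapped. Krt8, a keratin of simple and luminal epithelium, was at -6.52, -6.55, -4.84 and -5.15 in 2151R and -10.20 in T11, against 0.00 and 1.52 in 2225L and 0.22 to 1.21 in 2208L (median 0.47). Its partner Krt18 had a gap of only 1.41, with 2151R at -2.06 to -1.41 and T11 at -5.05. Among keratins of basal cells, Krt17 was lower with a gap of 3.13 and Krt15 with one of 2.92, while Krt5 and Krt14 overlapped. Krt5 was at 2.16 to 3.14 in 2151R and -4.51 in T11, against 7.47 and 8.12 in 2225L and -4.59 to 2.48 in 2208L. Of 16 genes of hemidesmosomes and their laminin, 5 were lower (among them Lama3, Lamb3, Itgb4 and Col4a6) and Dst and Plec were higher. Lower members numbered 8 without replicate 1 of 2225L and 9 without both of its samples.

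The genes of apical identity and of membrane proteases were lower nearly throughout. Of 21 genes of apical polarity and traffic 17 were lower, 0 were higher and the median difference was -4.49. Crb3, the polarity protein Crumbs3, was at -5.42, -6.47, -5.27 and -6.23 in 2151R and -7.13 in T11, against 1.31 and 1.71 in 2225L and 0.00 to 0.96 in 2208L (median 0.42). Epn3, an endocytic adaptor gene, had narrow ranges within the pools, with -5.74 to -5.35 in the mesenchymal-like and 0.12 to 0.83 in the epithelial samples. Pard3 and Scrib, polarity genes with roles in many cell types, overlapped. All 9 measured membrane serine proteases and Kunitz-type inhibitors were lower (median difference -5.67). St14, the protease matriptase, was at -5.50, -5.98, -5.23 and -5.66 in 2151R and -7.41 in T11, against 0.64 and 0.90 in 2225L and 0.63 to 1.54 in 2208L (median 0.91). Its inhibitor Spint2 was at -6.19, -5.64, -5.24 and -5.45 in 2151R and -8.21 in T11, against 0.39 and 2.30 in 2225L and 0.33 to 1.53 in 2208L (median 0.64). That protease and inhibitor were low in the same 5 samples was fixed by the rule that chose both genes.

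**Figure D3:**
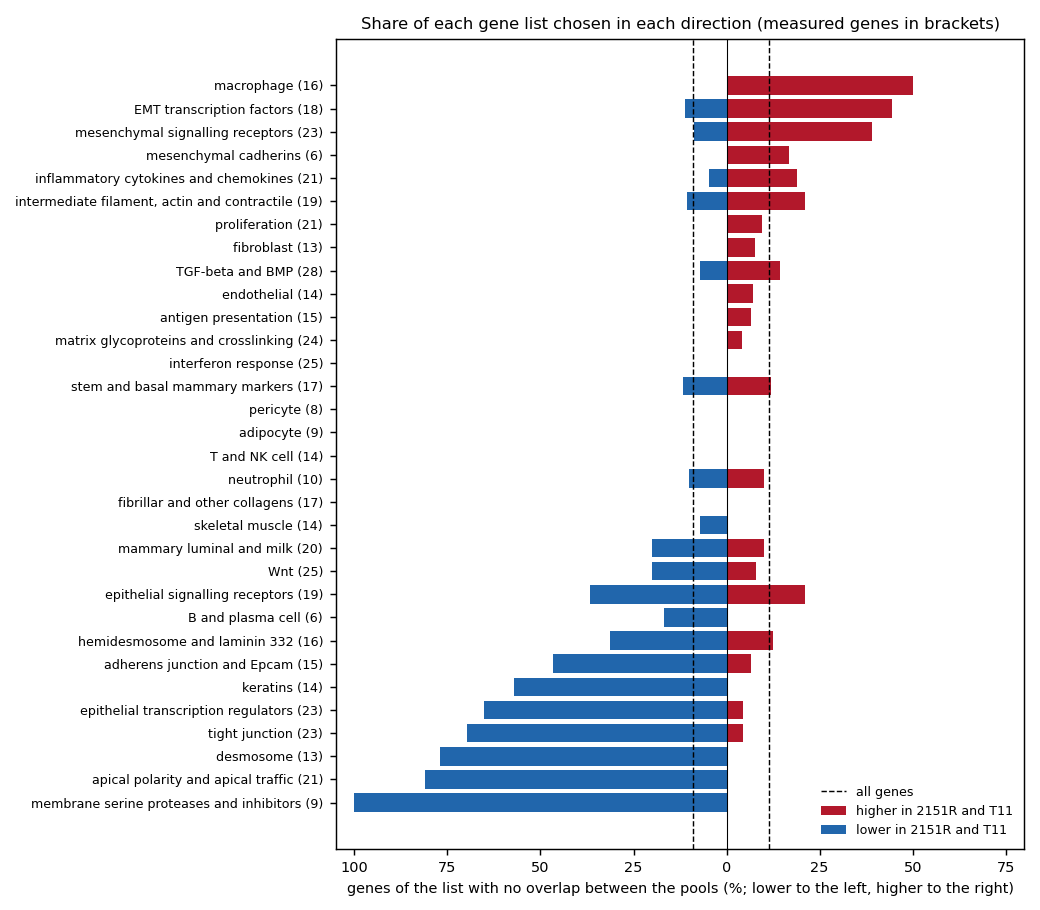
Share of the measured genes of each of 32 lists (%; horizontal axis) that were lower (bars to the left) or higher (bars to the right) in 2151R and T11 with no overlap; dashed lines mark the shares over all genes, 8.92% and 11.5%. Membrane proteases, apical genes, desmosomes and tight junctions reach furthest to the left, and the macrophage list and the transcription factors of the transition furthest to the right. The lists were chosen with earlier results of these data known, so the shares are a description and no independent test.

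The promoters of lower genes are shown because ZEB and SNAI factors bind the E-box CACCTG. Windows of 250 bases before a RefSeq start (GRCm38.p6) were searched for CACCTG and its reverse complement CAGGTG, and 2491 of 15382 windows of genes in the table (16.2%) held a match, while 31 (0.202%) held 3 or more. Of 28 lower genes named from the epithelial lists, 17 had a window that was searched. By the window with the most matches, 13 of these genes held 1 or more and 4 held 3 or more. Shown are the windows of these 4, Ap1m2, Lsr, Crb3 and Spint2, picked for their matches. These counts are of genes, unlike those of windows above, and no test was run. Windows were at hand for 70.0% of the higher and 74.6% of the lower genes, against 70.1% of all genes. Motif shares over the chosen genes were not compared, so nothing is read from the windows about the chosen genes as a set. The windows of Ap1m2 (chr9:21312334-21312583, minus strand), Lsr (chr7:30973470-30973719, minus strand), Crb3 (chr17:57061951-57062200, plus strand) and Spint2 (chr7:29281978-29282227, minus strand) read as follows, 5′ to 3′ on the gene's strand, with matches on either strand in capitals. A match is a feature of the letters and not a measured binding site.
Ap1m2: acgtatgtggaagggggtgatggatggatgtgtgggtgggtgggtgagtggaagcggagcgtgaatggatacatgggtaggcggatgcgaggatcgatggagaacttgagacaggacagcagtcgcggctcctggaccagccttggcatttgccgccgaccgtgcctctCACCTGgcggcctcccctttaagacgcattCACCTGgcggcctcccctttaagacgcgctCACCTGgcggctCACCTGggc
Lsr: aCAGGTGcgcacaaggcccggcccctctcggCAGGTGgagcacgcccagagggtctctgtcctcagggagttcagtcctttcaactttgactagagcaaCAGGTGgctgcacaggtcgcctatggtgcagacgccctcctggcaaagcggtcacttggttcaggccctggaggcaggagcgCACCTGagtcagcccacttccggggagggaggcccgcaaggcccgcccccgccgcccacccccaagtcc
Crb3: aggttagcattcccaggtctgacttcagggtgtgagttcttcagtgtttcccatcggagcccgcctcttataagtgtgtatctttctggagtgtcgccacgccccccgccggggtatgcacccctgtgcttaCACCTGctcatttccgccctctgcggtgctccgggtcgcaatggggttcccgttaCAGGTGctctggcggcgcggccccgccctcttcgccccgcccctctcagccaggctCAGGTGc
Spint2: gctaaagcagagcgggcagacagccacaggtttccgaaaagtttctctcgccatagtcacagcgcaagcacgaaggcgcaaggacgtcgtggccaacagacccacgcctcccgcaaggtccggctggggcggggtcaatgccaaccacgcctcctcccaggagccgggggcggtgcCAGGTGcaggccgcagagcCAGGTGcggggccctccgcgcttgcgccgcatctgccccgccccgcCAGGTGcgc

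The list of epithelial signalling receptors and their ligands, which holds EGF family members and other receptors, split between the pools. In that whole list 21.1% were higher and 36.8% lower, against 11.5% and 8.92% over all genes. Of 19 measured genes of epithelial signalling receptors and their ligands, 4 were higher (Ereg, Btc, Hbegf and Egfr), 7 were lower (Tgfa, Erbb3, Erbb2, Epha1, Lpar2, Ddr1 and Ephb4) and 8 overlapped. Ereg, which encodes the ligand epiregulin, was at 2.57, 2.02, 2.33 and 2.77 in 2151R and 3.61 in T11, against -2.65 and -1.82 in 2225L and -1.65 to -0.06 in 2208L (median -0.69). Egfr was at 0.96, 0.88, 0.30 and 0.91 in 2151R and 1.11 in T11, against 0.21 and -1.54 in 2225L and -3.95 to -0.72 in 2208L (median -1.96). Its gap of 0.09 rests on replicate 3 of 2151R and replicate 1 of 2225L, so the separation of Egfr is narrow. Erbb3, the ERBB2 partner receptor, was at -4.10, -4.69, -4.22 and -4.38 in 2151R and -5.49 in T11, against 1.73 and 0.50 in 2225L and 0.00 to 1.72 in 2208L (median 1.29). Tgfa, which encodes another EGFR ligand, had a gap of 3.36 (difference -4.99, SE 0.37) and was lower, opposite to Ereg, Btc and Hbegf.

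Receptors listed as mesenchymal were higher more often than lower, 9 against 2 of 23 (median difference 1.37). Ddr2, a receptor for fibrillar collagen, was at 2.14, 1.46, 1.41 and 1.94 in 2151R and 2.72 in T11, against -2.52 and -1.99 in 2225L and -3.77 to -1.47 in 2208L (median -2.59). Ddr1, the collagen receptor of epithelium, went the other way, with -1.35 to -0.33 in the mesenchymal-like and 0.00 to 1.41 in the epithelial samples. Axl, a receptor tyrosine kinase, was at 1.86 to 2.60 and the epithelial samples at -1.57 to 0.00. Nrp2, a semaphorin and VEGF coreceptor, had a gap of 2.25. Pdgfrb and Fgfr1 overlapped, at differences of 0.43 and 0.55.

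Cytoskeletal and matrix genes were mostly not separated. Of 19 genes of intermediate filaments and actin, Vim, Actn1, Cnn3 and Msn were higher and Myh14 and Lmod1 lower. Acta2, the smooth muscle actin gene, overlapped, at -1.51 to 0.00 in 2151R, 1.32 in T11 and -0.60 to 0.81 in the epithelial samples. Of 24 matrix glycoprotein genes Ecm1 alone was higher, with a gap of 1.32, and 3 were without T11 and 2 without replicate 4 of 2151R. Fn1, the gene of fibronectin, was at -1.12 to 0.09 in 2151R and 1.97 in T11, against -3.23 and -3.71 in 2225L and -1.42 to 0.56 in 2208L. None of 17 collagen genes was separated, with a median difference of 0.65. Col1a1 was at -0.11 to 1.08 in the mesenchymal-like and -0.74 to 1.16 in the epithelial samples (difference 0.45, SE 0.33, limma adjusted p 0.281). Without replicate 3 of 2151R and replicates 6 and 8 of 2208L, which carry high skeletal muscle genes, 6 collagen genes were higher. Without single samples the number was 2 (replicate 3 of 2151R), 1 (T11) and 3 (replicate 6 of 2208L), and 1 collagen gene was lower without T11 or without replicate 1 of 2225L. Of 13 fibroblast markers 1 was higher (7.69%, against 11.5% over all genes). The count was 2 without T11, 3 without replicate 6 of 2208L and 4 without the 3 libraries with high muscle genes. The list means were 0.54 to 2.28 in 2151R, 0.36 in T11 and -1.25 to 1.92 in the epithelial samples.

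Growth factor, lineage and Wnt genes held a few wide separations. Bmp2, a BMP ligand, was at 2.04, 2.23, 2.09 and 2.35 in 2151R and 3.60 in T11, against -1.41 and -0.86 in 2225L and -2.08 to -0.14 in 2208L (median -1.07). The BMP target Id2 and the inhibitory Smad6 were lower, with gaps of 0.92 and 0.06. Of the 28 genes of the TGF-beta and BMP list, 4 were higher (14.3%) and 2 lower (7.14%), and 7 were higher without 2225L. These shares are near those over all genes, 11.5% and 8.92%. Sox2, a pluripotency and progenitor factor (chr3:34649995-34652461), was at 4.23, 3.86, 4.20 and 4.12 in 2151R and 3.30 in T11, against 0.00 and -3.58 in 2225L and -6.05 to -2.09 in 2208L (median -4.54). Kit, a luminal progenitor receptor, was at -3.05 to -2.09 against 0.00 to 1.63. Most genes of the lineage lists overlapped. Of 17 stem and basal mammary markers 2 were higher and 2 lower (11.8% each), near the shares over all genes. Of 20 measured mammary luminal and milk genes 2 were higher (10%) and 4 lower (20%). Of 25 measured Wnt genes, Dkk2 and Fzd8 were higher (8%, under the share over all genes) and Wnt5b, Wnt11, Fzd5, Fzd6 and Fzd7 lower (20%). Without the 3 libraries with high muscle genes, 4 were higher.

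Macrophage genes were the cell type list with the largest share of higher members. Of 16 listed, 8 were higher (Csf1r, Cd68, Lyz2, Msr1, Itgam, Mertk, Adgre1 and Cx3cr1), 0 were lower and the median difference was 1.49. Csf1r, the receptor for colony stimulating factor 1 that sustains macrophages, was at 1.18, 0.91, 0.82 and 0.87 in 2151R and 1.83 in T11, against -1.92 and -0.67 in 2225L and -0.89 to 0.12 in 2208L (median -0.41). Both ligands of this receptor were higher as well. Csf1 was at 1.41, 1.05, 1.27 and 1.40 in 2151R and 2.15 in T11, against -1.36 and -0.63 in 2225L and -0.94 to 0.04 in 2208L (median -0.27). Il34 was at 1.85, 1.57, 1.62 and 1.66 in 2151R and 2.25 in T11, against -2.09 and -0.66 in 2225L and -0.80 to 0.00 in 2208L (median -0.37). The gaps of Csf1r, Csf1 and Il34 were 0.70, 1.01 and 1.57, where the rule required that no epithelial sample reach a mesenchymal-like one. The complement gene C1qa (-0.19 to 0.44 against -2.20 to 0.40), Mrc1 (1.35 to 1.84 against -2.85 to 1.39) and the chemokine gene Ccl2 (0.43 to 1.34 against -1.78 to 1.03) overlapped. The mean of the macrophage list was 0.27 to 0.64 in 2151R, 1.0 in T11, -1.88 and -0.82 in 2225L and -0.67 to 0.26 in 2208L. The lowest mesenchymal-like and highest epithelial means were thus nearly the same, and the part of macrophage content in the values of its single genes was not tested.

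**Figure D4:**
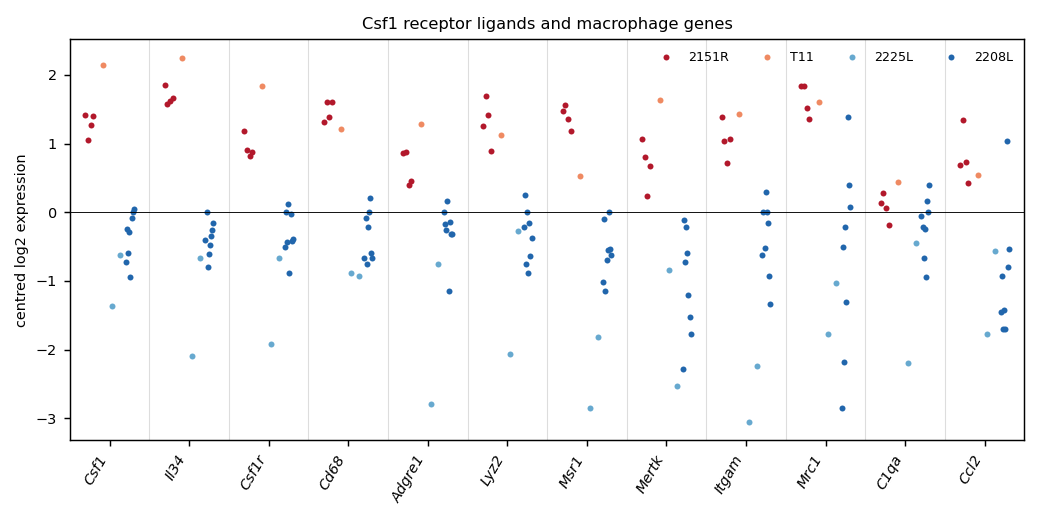
Centred log2 expression (vertical axis) of Csf1, Il34 and macrophage genes, with 1 point for each sample. Csf1, Il34, Csf1r, Cd68, Adgre1, Lyz2, Msr1, Mertk and Itgam do not overlap between the pools, while Mrc1, C1qa and Ccl2 do.

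Most other immune, stromal and cell cycle lists showed few chosen genes. The list of inflammatory cytokines and chemokines held more, with 4 of 21 measured genes higher (19%) and 1 lower (4.76%). Of 10 measured neutrophil genes 1 was higher and 1 lower. Of 15 antigen presentation genes 1 was higher, and of 6 measured B and plasma cell genes 1 was lower. No pericyte or adipocyte gene was chosen. Over all genes 11.5% were higher and 8.92% lower. No gene of the interferon response list (25 genes) or of the T and NK cell list (14) was chosen. Without both samples of 2225L, 14 interferon genes were lower, and without replicate 1 alone 2 were. For T and NK cells 3 genes were higher without replicate 6 of 2208L, and 2 without T11. Of 14 endothelial genes Emcn was higher (7.14%) and of 21 proliferation genes Ccnb1 and Ccna2 were (9.52%). Both shares are under the 11.5% over all genes. Emcn, Ccnb1 and Ccna2 had gaps of at most 0.10 and overlapped with each sample centred on its median. Without T11, 6 proliferation genes were higher, without replicate 1 of 2225L 4 were, and the endothelial count was 2 without T11 or without replicate 4 or 6 of 2208L and 3 without replicate 3 of 2151R or replicate 1 of 2225L. Skeletal muscle list means were 5.99 at the highest in 2151R and 10.07 in 2208L. Without the 3 libraries with high muscle genes, 2525 genes were higher and 1703 lower, where leaving out samples can add genes to the chosen set but remove none.

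The models inside the epithelial pool differed in part of the chosen genes, in a contrast that the rule did not make, although it used the same values. With limma, 2225L and 2208L differed in 5687 of all genes (32.9%), in 594 of the 1988 higher (29.9%) and in 496 of the 1541 lower genes (32.2%). Of the higher genes 498 were lower and 96 higher in 2225L than in 2208L, and of the lower genes 179 were lower and 317 higher, where over all genes 2994 were lower (17.3%) and 2693 higher (15.6%). The rule bears on these splits, since it kept only genes whose 2225L values lay beyond the mesenchymal-like ones, so nothing is read from them. Gata3 was lower in 2225L by a difference of -2.90 (SE 0.33, adjusted p 2.95e-05), Cxcl12 by -3.30 (SE 0.38, adjusted p 3.49e-05) and Zeb2 by -1.36 (SE 0.36, adjusted p 0.0104). Trp63 was higher in 2225L by 3.82 (SE 0.40, adjusted p 1.59e-05), Nectin4 by 2.03 (SE 0.26, adjusted p 6.82e-05) and Krt79 by 3.16 (SE 0.53, adjusted p 0.00056). Muc1, an apical mucin gene, went the other way at -3.09 (SE 0.35, adjusted p 2.90e-05), and so did Lcn2 at -2.68 (SE 0.44, adjusted p 0.000479). At Cldn7 the difference between 2225L and 2208L was -0.24 (SE 0.40, adjusted p 0.689) and at Cdh1 0.03 (SE 0.23, adjusted p 0.93).

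Some of the chosen genes also differed between treatment marks inside 2208L. Samples marked PBS and 3day nt differed in 5864 genes (34.0%), in 484 of the higher (24.3%) and in 532 of the lower genes (34.5%). Among the higher genes 399 were higher and 85 lower in PBS samples and among the lower genes 242 and 290, where over all genes 3007 were higher (17.4%) and 2857 lower (16.5%). The rule used the values of these samples as well, so nothing is read from these splits. The marks go with separate prefixes and library numbers in the titles, so mark and library cannot be told apart. Replicates 6 and 8, marked 3day nt, carried high muscle genes, with Acta1, the skeletal actin gene, at 10.13 and 9.83 against -4.39 to 3.48 in the PBS samples and 1.23 in replicate 7, and their part in these counts was not tested. Dst, a cytoskeletal linker gene of the higher set, was higher in PBS samples by 1.36 (SE 0.18, adjusted p 0.00481). The count over all genes was 3886, 3848, 2950 and 2377 without replicate 2, 3, 6 or 8 of 2208L.

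T11, with a single sample, set the edge of the mesenchymal-like pool most often. It was the nearest mesenchymal-like sample at 33.0% of the higher genes and 36.5% of the lower ones. T11 lay above all 2151R samples at 33.3%, below them at 33.0% and within their range at 33.7% of the higher genes, and at 36.5%, 33.6% and 29.9% of the lower genes. Over all genes the shares were 39.9%, 30.8% and 29.3%. Without T11 the rule chose 2582 higher and 2218 lower genes. The nearest epithelial sample was most often replicate 2 (26.2%) or 6 (18.6%) of 2208L at the higher genes, and replicate 5 of 2208L (24.3%) or replicate 1 of 2225L (23.9%) at the lower genes.

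Chosen genes were next to each other on chromosomes more often than the share of all genes gives. In RefSeq order on GRCm38.p6, which placed 16183 genes (93.7%), the next gene was also higher for 23.7% of higher genes, where 11.7% of placed genes were higher. For lower genes the next gene was also lower for 18.9%, where 9.21% of placed genes were lower. By chromosome, the higher share ran up to 25% on chromosome 3, 23.6% on chromosome 18 and 22.1% on chromosome 13, and the lower share up to 17.9% on chromosome 7 and 14.2% on chromosome 9. The 105 higher genes of chromosome 18 include runs of clustered protocadherins, among which the division of reads is uncertain. Such runs also add to the share of higher genes with a higher neighbour. The median over all genes of a chromosome, taken relative to the sample's own median, did not overlap between the pools at 6 of 20 chromosomes. On chromosome 3 it was 0.17 to 0.39 in the mesenchymal-like and -0.37 to -0.02 in the epithelial samples, and on chromosome 7 it was -0.28 to -0.15 against 0.05 to 0.24. Chromosomes 13 and 18 were also higher and 6 and 9 also lower. These medians include the chosen genes, so they are no separate support for the shares. On chromosome 13, 2151R was at 0.23 to 0.36, T11 at 0.28, 2208L at 0.03 to 0.13 and 2225L at -0.37 and -0.5. With only 2 lines against 2, unrelated lines could also part in this way at some chromosomes. The count is therefore a description, and a link to the tumour class was not tested. Copy number was not measured in these files.

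**Figure D5:**
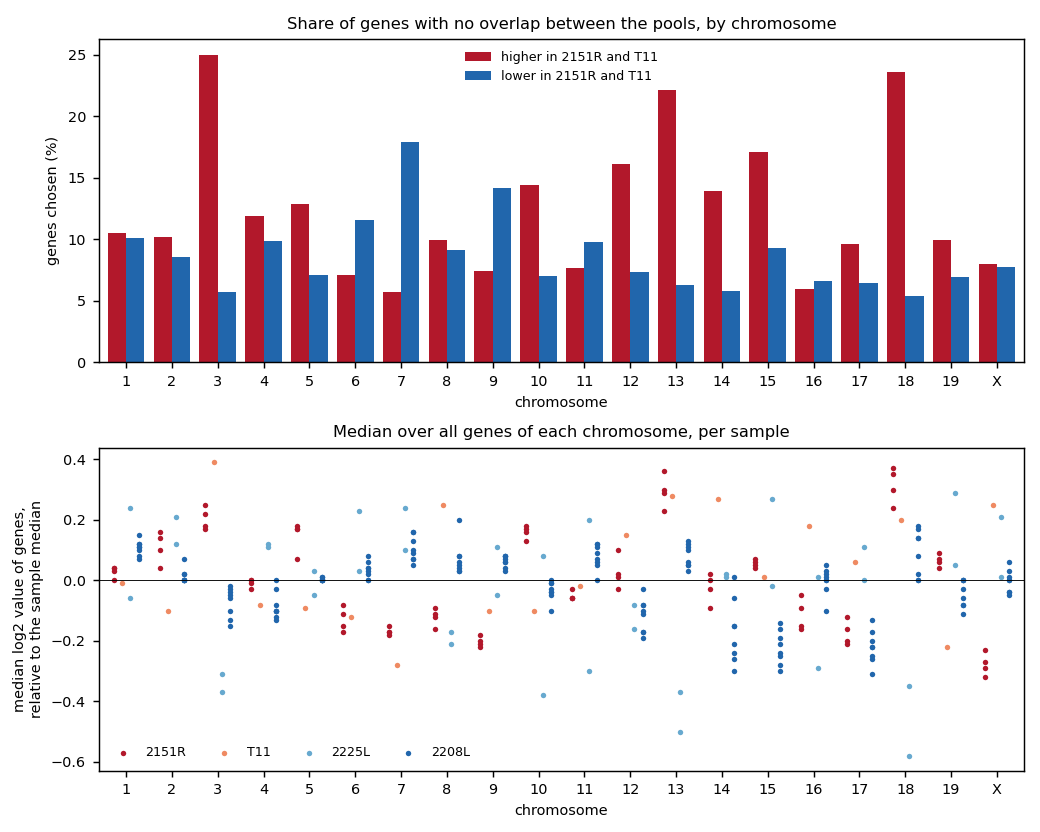
Top, share of the placed genes of each chromosome that were higher or lower in 2151R and T11 with no overlap (%). Bottom, median over all genes of a chromosome relative to the sample's median (log2), with 1 point for each sample; chromosomes 3, 13 and 18 lie higher and 6, 7 and 9 lower in all 5 mesenchymal-like samples.

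Some runs of neighbours were of related genes. Cldn4, Cldn3, Wbscr25, Abhd11 and Abhd11os formed a run of 5 lower genes (chr5:134945123-135013157), Krt79, Krt8, Gm36026 and Krt18 a run of 4 (chr15:101929332-102032026), and Pgap3, Erbb2, Mien1 and Grb7 a run of 4 (chr11:98388672-98458230). In the last run the differences were -1.50, -2.94, -1.29 and -7.19, so Grb7, an adaptor of ERBB receptors, was far lower than its neighbours. A run of 7 lower genes on chromosome 9 (chr9:107580669-107668968) held Sema3b (-6.98) and Slc38a3 (-6.81) beside Gnai2 (-0.54). Runs of 8 and 7 higher genes on chromosome 18 were clustered protocadherins.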

How the data were processed

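The authors deposited 1 table of log2 expression values, centred for each gene, for 17271 genes in 15 samples. STAR, Salmon and the build mm10 are named, without roles, in the submitters' processing notes. The offset, the samples behind the centring and the normalization between samples are not given in the sources used here. In 727 genes samples share an exact value, which was used as deposited. Sample medians ran from -0.29 to 0.10, and depth is unknown.

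The model named in each title gave the groups. Genes were chosen by the absence of overlap, and all genes were fitted with limma 3.58.1 in R 4.3.3 (lmFit, eBayes without trend, Benjamini-Hochberg adjustment, threshold 0.05) on the pools, on 4 model means for 2225L against 2208L, and on 7 samples of 2208L for PBS against 3day nt. The fits were also run on simulated data in which samples were independent and lines had no effect of their own. That run therefore cannot show how the fits behave when samples of a line are alike. Symbols were matched to RefSeq GRCm38.p6 for coordinates, order and promoters.

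The members and the 32 gene lists were chosen with earlier results of these data known. Named genes, without predicted symbols or repeated values, are the 12 widest gaps in each direction, up to 4 of each list in each direction, 2 by difference from a list with under 2 chosen genes, and 3 on each side of the edge of the rule. Other genes of the lists are given by value for their role. The gene families, the runs of neighbours with their genes, Gpx2, Gata4, Tmem74, Rgs17, the promoters shown and the chromosome medians were chosen after the values were seen. A few items are not reported here. Scaling, filters, each left-out sample, model structure and variance settings were varied.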

Additional observations from a re-analysis of the deposited data

Results flagged for a closer look

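Within 2151R (4 samples) and 2208L (8 samples), the value of each of 153 named genes was searched for a sample that stood apart from the rest of its group by Dixon's criterion. Of 306 groups 21 had such a sample, where chance alone gives about 1 in 20, or 15.3, so these are given as values. None of these samples crossed the gap between the pools at a chosen gene, since the rule had already required that.

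In 2208L replicate 1 stood apart at 7 genes. It was the highest at Cldn3 (2.02, others 0.91 to 1.24), Krt8 (1.21, others 0.22 to 0.59), St14 (1.54, others 0.63 to 1.03) and Myh14 (0.97, others 0.00 to 0.41). It was the lowest at Inhba (-1.24, others -0.04 to 0.58), Ptgs2 (-2.24, others -0.33 to 0.83) and Pax5 (-2.22, others -0.68 to 0.35). This is the only 2208L sample with the ROSEN mark, and the part of that mark in its values was not tested. Replicate 5 was the lowest at Ccna2 (-0.95, others -0.37 to 0.02) and Dhx30 (-0.16, others 0.21 to 0.53) and the highest at Tmprss4 (2.18, others 0.53 to 1.21). Replicate 7 was the lowest at Syne3 (-2.18, others -1.52 to -1.02).

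In 2151R replicate 2 was the lowest at Ap1m2 (-7.60, others -6.47 to -6.30), Cdh1 (-6.13, others -5.36 to -5.34), Hbegf (0.62, others 1.26 to 1.34) and Prf1 (1.99, others 2.96 to 3.07), and the highest at H2-Aa (-0.29, others -1.39 to -1.24). Replicate 3 was the lowest at Col5a3 (1.48, others 1.99 to 2.09) and Egfr (0.30, others 0.88 to 0.96), and the highest at Celsr1 (-4.41, others -5.14 to -5.02) and Wnt5b (-2.26, others -2.87 to -2.77). Replicate 1 was the highest at Cdh6 (1.16, others -0.37 to -0.14).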

How the results depend on the processing

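No paired analysis was possible because no replicate number in the labels is common to several models. Leaving out each sample gave 1996 to 2582 higher and 1542 to 2218 lower genes with no overlap, and 3286 to 4416 higher and 2773 to 3575 lower genes by limma. It gave 4580 to 5194 genes that differ between 2225L and 2208L and 2377 to 6800 between PBS and 3day nt. A gap of at least 1 left 413 higher and 609 lower genes. By limma, the model as a random block called 1310 higher and 1221 lower, leaving out replicates 1 and 2 of 2151R 2571 and 2178, sample weights 5320 lower, and a difference of at least 1 left 2600 higher. The cause of these changes was not tested, apart from the smaller number of samples or the stricter threshold where these define the setting. Of 127 named genes with no overlap 123 kept it and Ccna2, Ccnb1, Ccp110 and Emcn did not, which only the 2 rescalings could bring about, since leaving out samples cannot create an overlap. Of 4274 differences of 153 named genes under alternatives 4183 kept their direction and side of the threshold, 79 lost and 12 gained a call, and 0 reversed. At the 127 named genes with no overlap, leaving out samples cannot reverse a difference, so the rule largely fixed that last count. The random block accounts for 36 of the lost calls. Counts of the lists moved by over 1.5 times in 61 of 1472 cases. Precision rests on 1 sample for T11 and 2 for 2225L.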

Other observations

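Gene families grouped by symbol, picked after their values were seen and therefore not tested, held further chosen genes. For all family counts in this section, the shares over all genes were 11.5% higher and 8.92% lower. Of 39 clustered protocadherins, cell surface cadherins best known from neurons, 22 were higher and 0 lower (21 higher with quantile normalization), with a median difference of 2.16 against 0.11 over all genes. Pcdhga1 differed by 3.22 and Pcdhgc3 by 3.15. Genes of the gamma cluster share their last exons and those of the beta cluster are close copies, so how reads were divided among them is uncertain.

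Some ribosomal protein genes were lower. Of 34 Rps genes 9 were lower and 0 higher (median difference -0.85), and of 49 Rpl genes 10 were lower and 0 higher (-0.62). Rps19 differed by -1.77 and Rps4x by -1.31. With each sample centred on its median these counts were 14 and 17, and with quantile normalization 9 and 12, and no member was higher under either. Processed copies of ribosomal protein genes are many, which leaves single values uncertain.

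Of 19 tetraspanins, membrane organisers, 8 were lower, such as Tspan1 (-4.76) and Tspan13 (-3.20). Of 10 Dock genes, guanine nucleotide exchange factors, 5 were higher, such as Dock10 (1.92) and Dock2 (1.74). Of 16 matrix metalloproteinase genes 5 were higher, such as Mmp9 (4.95) and Mmp16 (4.81), and Mmp15 was lower (-3.19). Of 11 Toll-like receptor genes 4 were higher, such as Tlr7 (2.32), and 3 were under either other scaling. Dock2 and Tlr7 are also expressed in macrophages, whose list mean is given with the macrophage genes, and the part of such cells in these values was not tested.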
